A study of Oryctolagus cuniculus with 20 samples.

Results

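RGS5 (Gene ID ENSOCUG00000001169, 1 transcript row) was 1 of 23669 genes in a table of RNA levels from rabbit (Oryctolagus cuniculus) blood vessels, found by its gene name. It was singled out because its level differed widely among the vessels, and all 20 libraries entered that choice, so its levels and differences are described without a test. The grafts were pieces of common carotid artery placed in a vein and collected 30 or 14 days after surgery. The vein group was unoperated external jugular vein, and the controls were the opposite, unoperated carotid arteries of day 30 and day 14. Each of the 5 groups had 4 libraries of total RNA, which the labels call biological replicates without saying that each came from a separate animal. Errors and p-values therefore measure the spread between samples, which may be partly technical. The labels give no strain, sex or age, and every sample also carries the cell line entry HASMC, although the other entries name tissue.

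RGS proteins bind active alpha subunits of heterotrimeric G proteins and speed the hydrolysis of their GTP, which shortens the signal of the receptor. RGS5 acts on alpha subunits of the Gi and Gq classes, through which angiotensin, endothelin, noradrenaline and sphingosine 1-phosphate constrict vessels. In mice it is known as a gene of pericytes and arterial smooth muscle, and in rats as one that is high in aorta and low in vena cava. The RGS5 protein, like those of RGS4 and RGS16, begins with methionine and cysteine. Once the methionine is cut off, the enzyme ADO oxidises the cysteine in the presence of oxygen, ATE1 adds arginine, and UBR ubiquitin ligases send the protein for degradation. The data here are RNA levels and hold no protein measurement.

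Values are FPKM (fragments per kilobase of transcript, scaled to the mapped fragments of each library), which are per length. Levels of different genes can be set side by side only roughly, since the reads and the genome build behind them are unknown. Between 6759 and 7740 genes reached 1 FPKM in a library, and sums of FPKM ran from 327806 to 671582. The 4 control day 14 libraries lay unusually close together, with a median SD of 0.0732 on the log2 scale over genes above 30 FPKM, against 0.135 to 0.324 in the other 4 groups. In each of those 4 groups 1 library lay close to a weighted mean of the other 3 and is called mixture-like. These were graft day 30 replicate 4, graft day 14 replicate 3, vein replicate 4 and control day 30 replicate 2, with median absolute log2 differences of 0.0821, 0.0775, 0.0796 and 0.0879. The rule marks 1 library in each of these groups whatever its distance. The control day 14 libraries, at 0.0791 to 0.0823, lay in the same range and were not marked. The reduced fit below counted control day 14 as 1 sample and left the 4 mixture-like libraries out. Leaving out the library nearest to the others can widen the spread and leaves fewer samples, so calls lost there are partly set by the rule.

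RGS5 was highest in control arteries, lower in grafts and lowest in vein. The grafts of day 30 had 185, 196, 120.15 and 167 FPKM in replicates 1 to 4, with a mean of 167 ± 33.4 FPKM (SD, n = 4). The grafts of day 14 had 102, 137, 262 and 286 FPKM, with a mean of 197 ± 90.8 FPKM. The graft groups overlapped (15.7% of genes did not), and every library of day 30 lay within the range of day 14. Vein had 18.7, 2.10, 12.2 and 13.6 FPKM, with a mean of 11.6 ± 6.94 FPKM, and replicate 2 stood below the others. Control arteries had 1930.2, 2317, 2384.5 and 2946 FPKM at day 30 (2394 ± 418 FPKM) and 3319, 3257, 3277 and 3322 FPKM at day 14 (3294 ± 32.2 FPKM). No control library overlapped a graft library of its day, as was so for 34.5% of all genes tested at day 30 and 50.1% at day 14. No graft library overlapped a vein library either, as for 34.3% of genes at day 30 and 36.9% at day 14, and vein lay apart from all 8 controls, as for 24.2%. The day 30 controls all lay below the day 14 controls, as was so of 22.8% of genes in either direction, with a log2 difference of -0.48. Its standard error depended on which libraries set the spread: it was 0.43 over all 5 groups, 0.27 without vein replicate 2 and 0.13 with the 2 control groups alone.

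**Figure D1:**
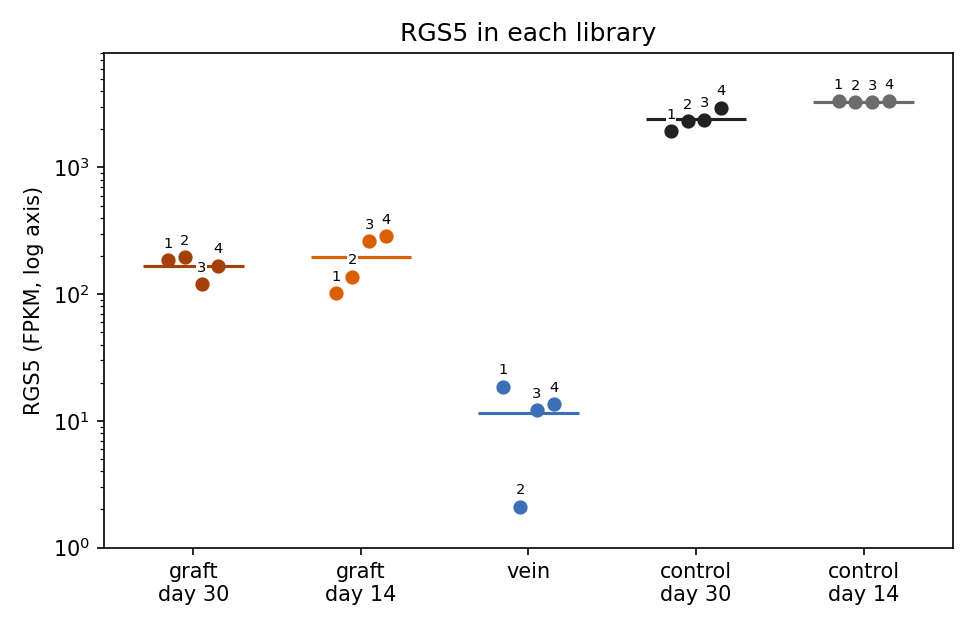
RGS5 in FPKM (log axis) in each of the 20 libraries, by group, with the replicate number beside each point and a line at the group mean. The 3 levels are apart: control arteries between 1930.2 and 3322 FPKM, grafts between 102 and 286 FPKM, and vein between 2.10 and 18.7 FPKM.

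The place of RGS5 among all genes followed the same order. Ranked by FPKM within a library, RGS5 was between 12th and 36th in the day 30 controls and between 15th and 19th in the day 14 controls, among the highest FPKM of those libraries. It was between 247th and 381st in the day 30 grafts, between 191st and 448th in the day 14 grafts, and between 1807th and 5766th in vein. Rescaled to TPM, so that each library sums to the same total, the means were 388 (graft day 30), 444 (graft day 14), 30.0 (vein), 6835 (control day 30) and 7966 (control day 14).

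Grafts held 6.98% of the control level of RGS5 at day 30 and 5.97% at day 14, which is 14.3-fold and 16.8-fold lower. On the scale of log2(FPKM + 1) the differences were -3.84 (SE 0.43) at day 30 and -4.19 (SE 0.43) at day 14. In bulk tissue such a difference cannot tell fewer cells of a type from less RNA per cell. Of the 8657 genes tested, which reached 1 FPKM in 4 or more libraries, 16 had a more negative difference at day 30 and 30 at day 14, while the median gene differed by 0.18 and 0.26. On this scale a gene cannot fall by more than its control level, so only genes high in controls could differ by as much. These ranks also use the values for which RGS5 was chosen, and are a description. The effects of the 2 days differed by 0.35 (SE 0.61) for RGS5, less than the standard error, and day 30 against day 14 within grafts gave -0.13 (SE 0.43), a value whose sign changed when either of graft day 14 replicates 3 and 4 or graft day 30 replicate 3 was left out. Without the mixture-like libraries the graft differences were -3.86 at day 30 and -4.37 at day 14.

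Vein held 0.409% of the mean RGS5 level of both control groups, 245-fold lower. Its log2 difference was -8.07 (SE 0.37), and 2 of the 8657 genes had a more negative one. Here too only genes very high in controls could fall so far, so this rank is a description. Without vein replicate 2 the log2 difference was -7.49, and without the mixture-like libraries it was -8.24. Set against vein, RGS5 was 14.4-fold higher in the day 30 grafts and 16.9-fold higher in the day 14 grafts, with log2 differences of 3.99 (SE 0.43) and 4.12 (SE 0.43). Of the genes tested, 46 stood further above vein at day 30 and 29 at day 14. Without vein replicate 2 these differences were 3.41 and 3.54. The vein comparisons share their libraries with one another, and the vein and graft comparisons share the control libraries, so they are not independent of each other.

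The RGS5 levels were next set beside those of the contractile genes of smooth muscle. ACTA2, smooth muscle actin, averaged 1401 ± 166 FPKM in day 30 grafts and 6347 ± 980.1 FPKM in day 30 controls (SD, n = 4 each), a log2 difference of -2.17 (SE 0.15, limma adjusted p = 5.6e-09). It averaged 641 ± 146 FPKM in day 14 grafts and 7170.1 ± 115 FPKM in day 14 controls, a log2 difference of -3.51 (SE 0.15, limma adjusted p = 5.91e-12). Vein had 2878 ± 176 FPKM, a log2 difference of -1.22 (SE 0.13, limma adjusted p = 6.76e-07) from both control groups. Vein thus held more ACTA2 than either graft group while it held far less RGS5.

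As a share of ACTA2 in the same library, RGS5 was 12.1% (8.70% to 16.2%) in day 30 grafts and 31.1% (16.6% to 44.7%) in day 14 grafts. The share was 0.394% (0.0790% to 0.606%) in vein, 38.05% (29.7% to 45.1%) in day 30 controls and 46.0% (44.6% to 47.1%) in day 14 controls. The day 30 grafts lay below every control library in this share. The day 14 grafts reached into the range of the day 30 controls, and their upper 2 values came from replicates 3 and 4. The highest, replicate 4 at 44.7%, also lay just above the lowest day 14 control, at 44.6%. Over the geometric mean of 17 contractile genes, RGS5 stood at 5.73 ± 1.58 in day 30 grafts, 12.1 ± 8.07 in day 14 grafts, 0.129 ± 0.0745 in vein, 23.0 ± 4.60 in day 30 controls and 25.2 ± 1.29 in day 14 controls (SD, n = 4 each). By this measure too the graft libraries of day 30 lay below all controls, while day 14 replicates 3 and 4, at 16.6 and 21.2, lay above the other grafts. Replicate 3 was below all controls, and replicate 4 was above the lowest 2 of the day 30 controls, at 18.7 and 20.8, and below every day 14 control.

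**Figure D2:**
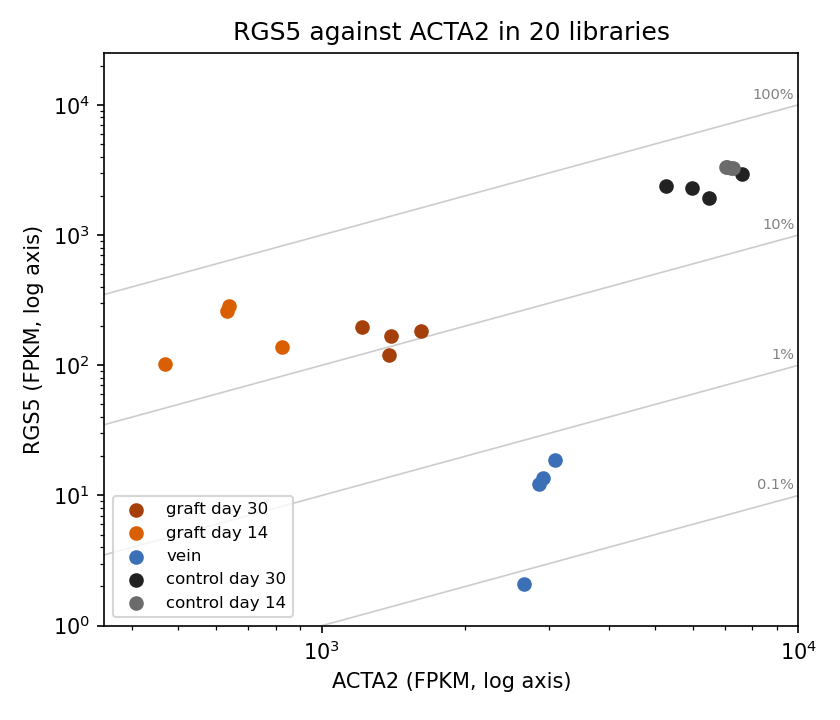
RGS5 against ACTA2, both in FPKM on log axes, with 1 point for each of the 20 libraries and grey lines where RGS5 equals 100%, 10%, 1% and 0.1% of ACTA2. Vein libraries lie near or below 0.606% at an ACTA2 level above that of the grafts, and the day 14 grafts spread from 16.6% to 44.7%.

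Of the 18 contractile genes tested, 14 were lower and 2 higher in grafts at day 30, and 14 were lower and 1 higher at day 14. Over all genes tested, 11.6% were called lower and 26.0% higher at day 30, and 17.0% lower and 36.5% higher at day 14, by limma with a Benjamini-Hochberg adjusted p under 0.05. In numbers that is 2253 higher and 1000 lower at day 30, and between 1270 and 1693 higher and 1256 and 1690 lower under median-of-ratios, TPM and quantile scaling. At day 14 it is 3161 higher and 1473 lower, and between 2136 and 2367 higher and 1652 and 2280 lower under those scalings. The reduced fit called fewer genes over all in every comparison. Its counts, here and in the lists below, are therefore not to be set beside these shares of all genes. The reduced fit called 13 contractile genes lower and 1 higher at each time. The median log2 difference of the contractile genes was -2.17 at day 30 and -3.04 at day 14. PLN, phospholamban, an inhibitor of the calcium pump SERCA, differed by -2.20 (SE 0.12, limma adjusted p = 5.38e-10) at day 30 and -4.34 (SE 0.12, limma adjusted p = 5.74e-14) at day 14. CRYAB, a small heat shock protein of muscle, differed by -4.33 (SE 0.24, limma adjusted p = 3.88e-10) at day 30 and -6.07 (SE 0.24, limma adjusted p = 2.7e-12) at day 14, further than RGS5 at both times. Within grafts, 8 of the 18 genes were higher and 1 lower at day 30 than at day 14, where 8.01% and 8.31% of all genes were called (693 and 719 genes, or 750 and 78 under TPM scaling), while RGS5 had the log2 difference of -0.13 given above. In the reduced fit 1 was higher and none lower.

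Vein differed from the control arteries less in this list: 9 of the 18 were lower and 1 higher, against 12% and 25.2% of all genes, with a median log2 difference of -0.62. Those backgrounds were 2178 genes higher and 1036 lower, and between 1583 and 1635 higher and 869 and 1544 lower under the 3 other scalings. In the reduced fit 4 were lower. TAGLN, the actin-binding protein transgelin, averaged 599.9 ± 94.4 FPKM in vein, 573 ± 164 FPKM in day 30 controls and 837 ± 131 FPKM in day 14 controls, and did not pass (log2 difference -0.19, SE 0.21, limma adjusted p = 0.525). CASQ2, a calcium-binding protein of the muscle's calcium store, was higher in vein, at 68.7 ± 10.2 FPKM against 5.13 ± 2.14 FPKM in day 30 controls and 13.4 ± 0.699 FPKM in day 14 controls (log2 difference 2.92, SE 0.23, limma adjusted p = 2.41e-08).

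Other RGS genes were not lower in grafts as RGS5 was. Of 18 other family members in the table, 6 passed the filter on low values, and the other 12 were at 1.31 FPKM or less in every library. Of those 6, 3 were higher and none lower in grafts at day 30, and 5 were higher and none lower at day 14. In vein 3 were higher and 1 lower. In the reduced fit 1 remained higher at day 30, 3 at day 14 and 1 in vein, with none lower in any of them. As first fitted, 26.0% of all genes were higher and 11.6% lower at day 30, 36.5% and 17.0% at day 14, and 25.2% and 12% in vein. Genes that passed the filter only through grafts could hardly do other than rise, so these counts describe the family and carry no further weight.

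RGS4, which acts on the same classes of alpha subunits and lies next to RGS5 on rabbit chromosome 7, was the nearest relative measured. It had 14.1, 15.6, 8.09 and 12.5 FPKM in day 30 grafts, against 4.65, 5.87, 7.54 and 4.15 FPKM in day 30 controls. The groups did not overlap, and the log2 difference was 1.04 (SE 0.29, limma adjusted p = 0.00892), a call lost in the reduced fit. In day 14 grafts it had 14.45, 16.8, 6.51 and 4.68 FPKM, against 7.37 to 9.03 FPKM in day 14 controls. Replicates 1 and 2 were above the controls and replicates 3 and 4 below them, so the log2 difference of 0.14 (SE 0.29) did not pass (limma adjusted p = 0.71). Vein had 16.5 to 23.9 FPKM, above all control libraries, with a log2 difference of 1.46 (SE 0.25, limma adjusted p = 0.000182). RGS5 exceeded RGS4 by a ratio of 13.5 ± 0.971 in day 30 grafts, 29.1 ± 26.3 in day 14 grafts, 459 ± 173 in day 30 controls and 392 ± 36.04 in day 14 controls. In vein the ratio was 0.533 ± 0.282, so RGS4 had the higher FPKM of the pair there.

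RGS2, which acts mainly on Gq subunits and limits constriction by angiotensin and noradrenaline, depended on the day as well as the vessel. It averaged 100.1 ± 19.8 FPKM in day 30 grafts and 103 ± 14.3 FPKM in day 30 controls, which overlapped (log2 difference -0.05, SE 0.28, limma adjusted p = 0.91). It averaged 105 ± 54.3 FPKM in day 14 grafts and 19.3 ± 0.872 FPKM in day 14 controls, without overlap (log2 difference 2.23, SE 0.28, limma adjusted p = 2.55e-06). The day 30 controls all lay above the day 14 controls. Vein, at 20.1 ± 3.95 FPKM, was near the day 14 controls and far below the day 30 controls, so its log2 difference from both, -1.13 (SE 0.24, limma adjusted p = 0.00117), is an average of unlike values, and the call was lost in the reduced fit. Within the day 14 grafts, RGS2 was 160.5 and 142 FPKM in replicates 1 and 2 and 69.0 and 49.3 FPKM in replicates 3 and 4. RGS5 ran the other way, with 102 and 137 FPKM in replicates 1 and 2 and 262 and 286 FPKM in replicates 3 and 4.

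RGS1 and RGS10, both known chiefly from white blood cells, had higher levels in grafts. RGS1 had 7.03 to 10.9 FPKM in day 30 grafts and 0.0800 to 0.220 FPKM in day 30 controls. It had 7.36 to 13.6 FPKM in day 14 grafts and 0.0100 to 0.0800 FPKM in day 14 controls. It was near 0 in vein as well, so it passed the filter through the grafts alone and its difference carries no test here. RGS10 had 13.4 to 21.1 FPKM in day 30 grafts and 6.45 to 13.8 FPKM in day 30 controls, which overlapped, and its call (log2 difference 0.90, SE 0.32, limma adjusted p = 0.0348) was lost in 13 of 32 alternatives. At day 14 it had 26.7 to 47.2 FPKM in grafts and 1.55 to 7.54 FPKM in controls (log2 difference 2.96, SE 0.32, limma adjusted p = 4.86e-07). RGS3 and RGS18 stayed low, with the highest group mean at 1.12 FPKM and 1.66 FPKM, and no control library reached the 1 FPKM of the filter.

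**Figure D3:**
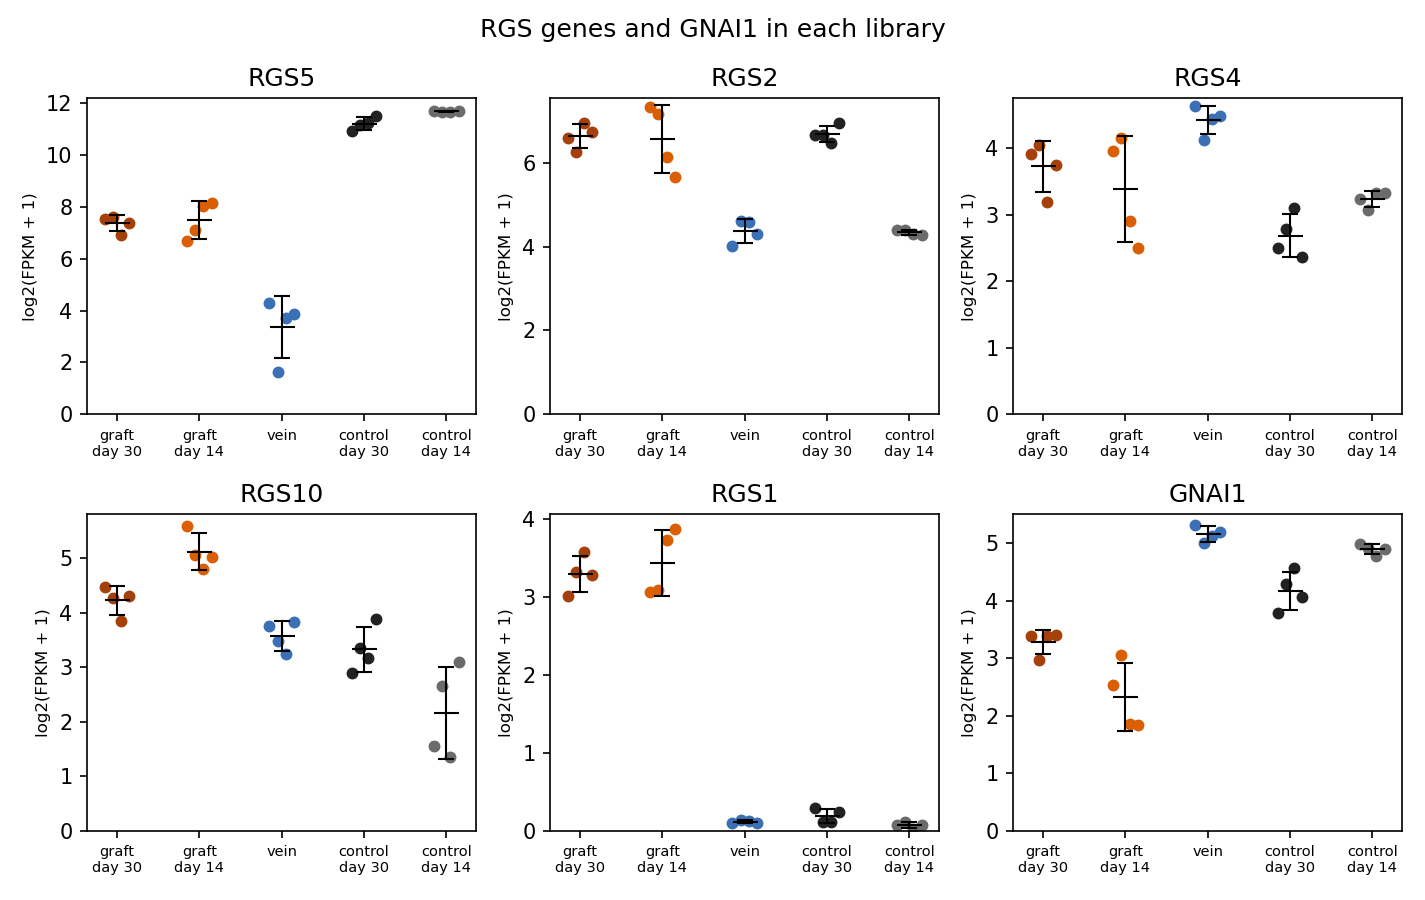
Log2(FPKM + 1) of RGS5, RGS2, RGS4, RGS10, RGS1 and GNAI1 in each library, by group, with the mean and SD of 4 libraries. RGS5 is the gene with its lowest level in vein and its highest in control arteries, RGS4 is highest in vein, and RGS1 is near 0 outside the grafts.

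The targets of RGS5 are the alpha subunits of the Gi and Gq classes. Of 6 alpha subunit genes tested, 2 were lower at day 30 and 3 at day 14, where 11.6% and 17.0% of all genes were lower, and none was higher, against 26.0% and 36.5%. The reduced fit kept 1 lower at day 30 and 2 lower at day 14, and median-of-ratios scaling gave 3 and 5. GNAI1, a Gi subunit, had 9.47, 6.80, 9.42 and 9.58 FPKM in day 30 grafts, against 12.8, 18.45, 22.6 and 15.7 FPKM in day 30 controls. It had 4.78, 7.35, 2.60 and 2.59 FPKM in day 14 grafts, against 26.5 to 30.8 FPKM in day 14 controls. The groups did not overlap at either time, and the log2 differences were -0.89 (SE 0.22, limma adjusted p = 0.0038) and -2.57 (SE 0.22, limma adjusted p = 3.04e-08), with the day 30 call lost in the reduced fit. In vein, where RGS5 was lowest, GNAI1 was 31.1 to 39.1 FPKM, above every control library (log2 difference 0.63, SE 0.19, limma adjusted p = 0.0154), although that call was lost in 5 of 32 alternatives.

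GNAQ, the Gq subunit, averaged 27.9 ± 5.30 FPKM in day 30 grafts and 26.8 ± 4.39 FPKM in day 30 controls (log2 difference 0.05, SE 0.14, limma adjusted p = 0.805). It averaged 16.3 ± 1.23 FPKM in day 14 grafts and 45.1 ± 3.28 FPKM in day 14 controls (log2 difference -1.41, SE 0.14, limma adjusted p = 1.5e-07). GNAO1, the Go subunit, which is also found in nerves, differed by -1.72 (SE 0.28, limma adjusted p = 8.77e-05) at day 30 and by -1.52 (SE 0.28, limma adjusted p = 0.000164) at day 14, where the reduced fit made no call. The nerve and Schwann cell markers were lower in grafts as well, as described below. GNAI3, another Gi subunit, was at 58.7 ± 7.31 FPKM in day 30 grafts, 66.2 ± 13.4 FPKM in day 14 grafts, 66.0 ± 4.29 FPKM in vein, 62.8 ± 4.33 FPKM in day 30 controls and 65.0 ± 1.34 FPKM in day 14 controls. No comparison of GNAI3 with controls passed, and the limma adjusted p was 0.556 at day 30, 0.986 at day 14 and 0.78 in vein. GNA12, another alpha subunit, did not pass either, with log2 differences of 0.23, 0.03 and 0.12 (SE 0.11, 0.11 and 0.09). GNAI2 was listed at 0 in at least 1 library of every group and reached 23.7 FPKM in 1 graft of day 30, so its level could not be read.

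Beta and gamma subunit genes were called higher no more often than all genes (26.0% at day 30, 36.5% at day 14 and 25.2% in vein). Of 5 tested, 1 was higher at each graft time and, outside the reduced fit, in vein. This was GNG2, at 17.9 ± 5.42 FPKM in day 30 grafts and 2.89 ± 1.14 FPKM in day 30 controls (log2 difference 2.28, SE 0.26, limma adjusted p = 2.01e-06). It was at 26.4 ± 5.30 FPKM in day 14 grafts and 1.73 ± 0.186 FPKM in day 14 controls (log2 difference 3.31, SE 0.26, limma adjusted p = 1.04e-08). GNG11 was the 1 gene lower at day 14, by -1.16 (SE 0.30, limma adjusted p = 0.00307), which was no longer called when control day 14 counted as 1 sample. Of all genes tested, 17.0% were lower at day 14.

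Receptors that use Gi or Gq moved in both directions. Of 24 tested, 10 were higher and 6 lower at day 30, 9 were higher and 8 lower at day 14, and 10 were higher and 6 lower in vein. The shares of all genes higher and lower, given above, were 26.0% and 11.6% at day 30, 36.5% and 17.0% at day 14, and 25.2% and 12% in vein. In the reduced fit 9 and 5, 3 and 4, and 6 and 4 were called. The receptor most like RGS5 was HTR1B, the serotonin receptor 1B, a Gi receptor that constricts arteries. It had 9.63, 14.2, 17.7 and 15.7 FPKM in day 30 grafts, against 25.5, 45.7, 55.8 and 40.4 FPKM in day 30 controls. It had 4.93, 6.28, 11.05 and 11.9 FPKM in day 14 grafts, against 78.0 to 85.3 FPKM in day 14 controls, and 0.240 to 0.600 FPKM in vein. As with RGS5, day 14 replicates 3 and 4 were the higher ones, and the order was control, graft, vein. Other receptors of contraction with lower levels were NPY1R, the neuropeptide Y receptor, and ADRA1B, an alpha-1 adrenergic receptor. NPY1R differed by -3.56 (SE 0.26, limma adjusted p = 1.41e-08) at day 30 and -4.30 (SE 0.26, limma adjusted p = 4.83e-10) at day 14, but in vein it kept 34.8 ± 1.15 FPKM, with a log2 difference of -0.96 (SE 0.23, limma adjusted p = 0.00282) that the reduced fit did not call. ADRA1B had 0.380 to 1.04 FPKM in day 30 grafts, 0.420 to 1.24 FPKM in day 14 grafts and 0.05 to 0.710 FPKM in vein, against 3.99 to 8.36 FPKM in day 30 controls and 8.63 to 9.07 FPKM in day 14 controls. It passed the filter through the controls, so these levels are given with no test. F2R, the thrombin receptor, differed by -0.86 (SE 0.20, limma adjusted p = 0.00191) at day 30 and by -1.86 (SE 0.17, limma adjusted p = 1.4e-07) in vein, and at day 14 its log2 difference was -0.19 (SE 0.20, limma adjusted p = 0.448). APLNR, the apelin receptor of endothelium, was higher by 3.91 (SE 0.28, limma adjusted p = 1.11e-08) at day 30 and 3.88 (SE 0.28, limma adjusted p = 3.89e-09) at day 14.

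PPP1R14A, which in its active form blocks myosin phosphatase and so prolongs contraction, averaged 175 ± 51.9 FPKM in day 30 grafts and 933 ± 112 FPKM in day 30 controls (log2 difference -2.45, SE 0.26, limma adjusted p = 1.16e-06). It averaged 105 ± 54.7 FPKM in day 14 grafts and 1139.5 ± 43.8 FPKM in day 14 controls (log2 difference -3.58, SE 0.26, limma adjusted p = 5.01e-09). Vein was lower too, at 351 ± 30.0 FPKM (log2 difference -1.55, SE 0.23, limma adjusted p = 3.59e-05). MYLK, the kinase that starts contraction, differed by -2.22 (SE 0.16, limma adjusted p = 1.36e-08) at day 30 and -3.09 (SE 0.16, limma adjusted p = 8.99e-11) at day 14. PLCB4, a phospholipase C driven by Gq, differed by -1.70 (SE 0.20, limma adjusted p = 2.7e-06) and -3.08 (SE 0.20, limma adjusted p = 1.03e-09) in grafts but was higher in vein, by 0.81 (SE 0.17, limma adjusted p = 0.00115, not called in the reduced fit). PLCB2, the phospholipase C of blood cells, had 2.74 to 6.01 FPKM in day 30 grafts and 2.04 to 10.47 FPKM in day 14 grafts, against 1.21 FPKM or less in day 30 controls and 0.540 FPKM or less in day 14 controls. It passed the filter through the grafts, so these levels too are given with no test.

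On the cyclic AMP side, which Gi receptors restrain, 2 of 7 genes were higher and 1 lower at day 30, none higher and 1 lower at day 14, and 3 higher and 1 lower in vein. Beside the shares of all genes (26.0% and 11.6%, 36.5% and 17.0%, 25.2% and 12%) these are small numbers, the reduced fit called none at day 30, 1 lower at day 14 and 1 higher in vein, and TPM scaling left none higher at day 30. The gene lower at both times was ADCY5, an adenylyl cyclase that Gi inhibits. It had 14.9 to 21.1 FPKM in day 30 grafts, against 27.8 to 35.3 FPKM in day 30 controls (log2 difference -0.83, SE 0.22, limma adjusted p = 0.00662, not called in the reduced fit). It had 1.77 to 5.84 FPKM in day 14 grafts, against 52.7 to 57.2 FPKM in day 14 controls (log2 difference -3.82, SE 0.22, limma adjusted p = 2.82e-10). In vein, where RGS5 was lowest, ADCY5 averaged 39.3 ± 6.75 FPKM, between the day 30 and the day 14 controls. Its log2 difference from both (-0.08, SE 0.19, limma adjusted p = 0.795) did not pass and is an average of unlike values. PRKAR2B, a regulatory subunit of protein kinase A, was higher in vein by 2.35 (SE 0.28, limma adjusted p = 3.6e-06).

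**Figure D4:**
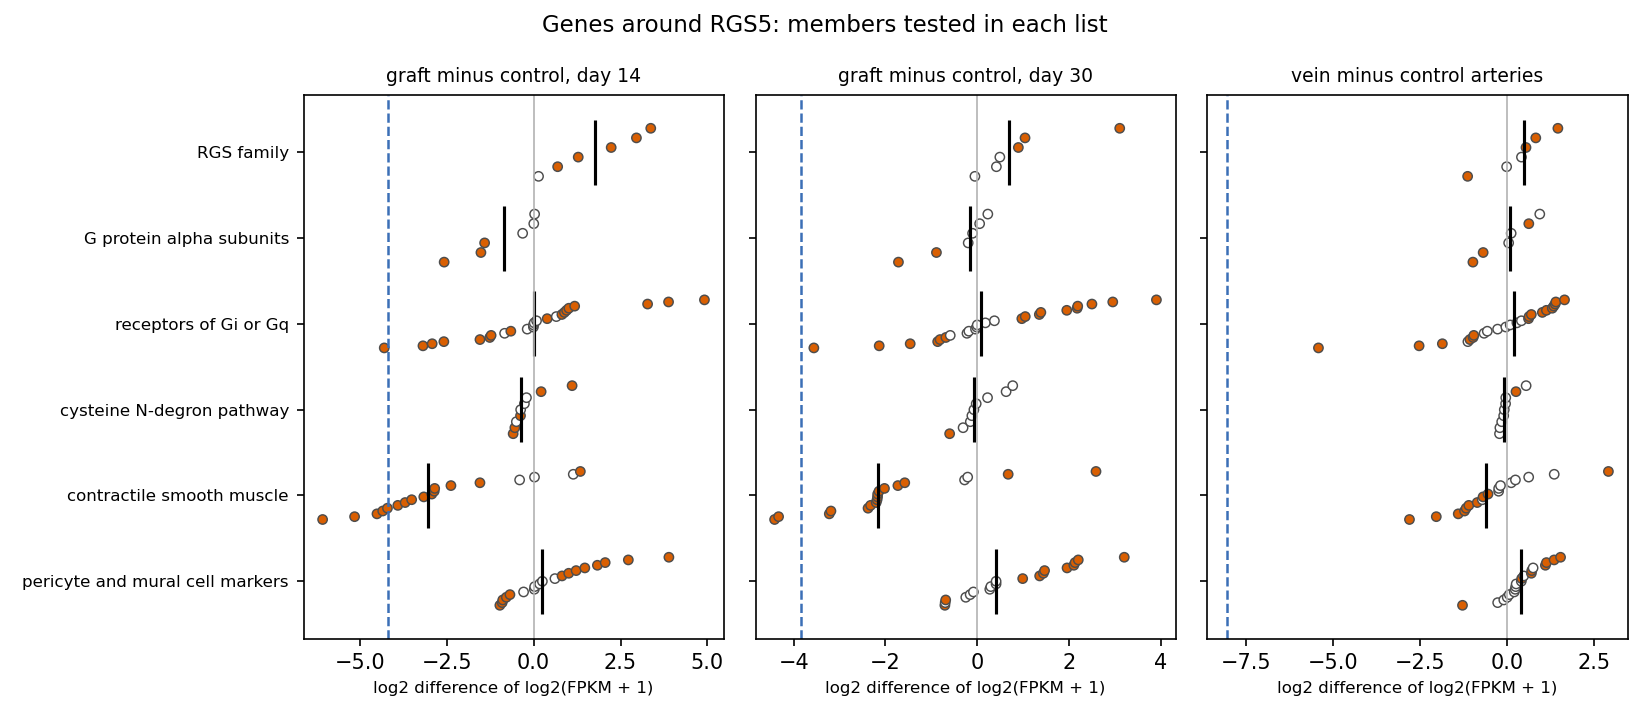
Log2 differences of the members tested in 6 gene lists, for graft minus control at day 14, graft minus control at day 30, and vein minus control arteries, with filled points called by limma, a black bar at the list's median and a dashed line at RGS5. RGS5, at -4.19, -3.84 and -8.07, lies below every member shown in vein, and in grafts it lies among the lowest. NPY1R lies near RGS5 at both graft times, PLN only at day 14 and CRYAB only at day 30.

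The RGS5 protein is degraded by a set of enzymes that act on its first residues. Of 9 genes of the cysteine N-degron pathway tested, none was higher and 1 lower at day 30, 2 were higher and 3 lower at day 14, and 1 was higher in vein. Of all genes tested, 26.0% were higher and 11.6% lower at day 30, 36.5% and 17.0% at day 14, and 25.2% and 12% in vein. The reduced fit called 1 lower at day 30 and none in the other comparisons. The counts depended on the scaling, as did the direction in vein. Across median-of-ratios, TPM and quantile scaling 2 to 5 were lower at day 30, 4 to 6 lower and 0 or 1 higher at day 14, and 0 to 3 lower and none higher in vein. ADO, the cysteine dioxygenase, was at 9.11 ± 2.08 FPKM in day 30 grafts, 9.87 ± 1.76 FPKM in day 14 grafts, 9.99 ± 1.29 FPKM in vein, 11.3 ± 0.705 FPKM in day 30 controls and 11.98 ± 1.202 FPKM in day 14 controls. Its log2 differences from controls were -0.31 (SE 0.14) at day 30, -0.27 (SE 0.14) at day 14 and -0.21 (SE 0.12) in vein, and none passed (limma adjusted p = 0.1, 0.125 and 0.207), although 5, 4 and 1 of 32 alternatives called them. UBE2B, a ubiquitin-conjugating enzyme, was lower by -0.60 (SE 0.12, limma adjusted p = 0.000735) at day 30 and -0.59 (SE 0.12, limma adjusted p = 0.000519) at day 14. UBR1 and UBR2, ubiquitin ligases, were lower at day 14 by -0.38 (SE 0.10, limma adjusted p = 0.00317) and -0.54 (SE 0.15, limma adjusted p = 0.00522). METAP1, which removes the first methionine, was higher at day 14 by 1.11 (SE 0.30, limma adjusted p = 0.00489). None of these 4 day 14 calls held when control day 14 counted as 1 sample, and METAP1 was not called with TPM scaling either. UBR4 did not pass in any of the 3, with log2 differences of -0.07 (SE 0.28), -0.37 (SE 0.28) and -0.08 (SE 0.24). ATE1 was listed at 0.260 FPKM or less in all libraries and RGS16 at 0.720 FPKM or less, and neither was tested.

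RGS5 is also used as a pericyte marker, so it was set beside 28 markers of pericytes and mural cells, which are not exclusive to these cells. Of 19 tested, 9 were higher and 2 lower at day 30, 8 were higher and 5 lower at day 14, and 7 were higher and 1 lower in vein, where the shares of all genes were 26.0% and 11.6%, 36.5% and 17.0%, and 25.2% and 12%. The reduced fit called 9 and 0, 5 and 0, and 1 and 1. Their summed level was 207 to 276 FPKM in day 30 grafts, 189 to 303 FPKM in day 14 grafts, 217 to 227 FPKM in vein, 156 to 187 FPKM in day 30 controls and 162 to 163 FPKM in day 14 controls. PDGFRB, the receptor through which pericytes are recruited, had 35.95 to 61.1 FPKM in day 30 grafts, against 19.6 to 28.4 FPKM in day 30 controls (log2 difference 0.99, SE 0.16, limma adjusted p = 7.35e-05). It had 51.4 to 76.5 FPKM in day 14 grafts, against 20.7 to 23.0 FPKM in day 14 controls (log2 difference 1.47, SE 0.16, limma adjusted p = 4.09e-07). In vein PDGFRB was at 27.5 ± 4.06 FPKM and did not pass (log2 difference 0.25, SE 0.14, limma adjusted p = 0.168). PDGFRB was thus higher in the grafts, where RGS5 was lower, and near control levels in vein, where RGS5 was lowest. CD248, endosialin, was higher by 2.20 (SE 0.30, limma adjusted p = 1.46e-05) at day 30 and 2.72 (SE 0.30, limma adjusted p = 5.64e-07) at day 14. GJA4, connexin 37, which endothelium also makes, was higher by 3.20 (SE 0.42, limma adjusted p = 1.09e-05) and 3.89 (SE 0.42, limma adjusted p = 5.18e-07).

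The subunits of the KATP channel of mural cells took another course. KCNJ8, its pore, had 14.2 to 22.3 FPKM in day 30 grafts, against 23.5 to 38.1 FPKM in day 30 controls, without overlap, but the log2 difference of -0.70 (SE 0.29) did not pass (limma adjusted p = 0.0718), although 7 of 32 alternatives called it. At day 14 it had 26.0, 32.9, 11.1 and 8.34 FPKM in grafts, against 31.4 to 33.8 FPKM in controls (log2 difference -0.91, SE 0.29, limma adjusted p = 0.0146), and the call was lost without either replicate 3 or replicate 4 of the grafts. In vein it was higher, at 69.1 ± 2.67 FPKM (log2 difference 1.10, SE 0.25, limma adjusted p = 0.00227), a call lost in the reduced fit. ABCC9, its regulatory subunit, was lower at day 14 by -0.79 (SE 0.16, limma adjusted p = 0.000451, not called in the reduced fit), and did not pass at day 30 (-0.25, SE 0.16, limma adjusted p = 0.242) or in vein (0.23, SE 0.14, limma adjusted p = 0.207). FOXS1, a transcription factor of mural cells, was lower by -1.28 (SE 0.16, limma adjusted p = 4.55e-06) in vein and by -0.69 (SE 0.18, limma adjusted p = 0.00571) at day 30, the last not called in the reduced fit. At day 14 its log2 difference was 0.02 (SE 0.18, limma adjusted p = 0.94). CSPG4 was at 0.0900 FPKM or less and NOTCH3 at 0.990 FPKM or less in every library, so these defining markers of mural cells gave no reading.

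Markers of other cell types moved between the same groups, and their part in the RGS5 differences was not tested. Summed over the list, endothelial markers were at 581 to 757 FPKM in day 30 grafts, 260 to 614 FPKM in day 14 grafts, 779.8 to 1010 FPKM in vein, 87.4 to 201 FPKM in day 30 controls and 74.6 to 78.7 FPKM in day 14 controls. Of 11 tested, 9 were higher at day 30, 8 higher and 1 lower at day 14, and 9 higher in vein. The shares of all genes higher and lower were 26.0% and 11.6% at day 30, 36.5% and 17.0% at day 14, and 25.2% and 12% in vein. However, PECAM1, a defining marker of endothelium, was at 3.06 FPKM or less throughout and listed at 0 in the 8 controls. VWF, von Willebrand factor, was at 132 ± 13.9 FPKM in day 30 grafts, 64.3 ± 23.0 FPKM in day 14 grafts, 441 ± 47.4 FPKM in vein, 13.1 ± 4.95 FPKM in day 30 controls and 7.02 ± 0.224 FPKM in day 14 controls. Its order was the reverse of that of RGS5. Macrophage markers summed to 356 to 846 FPKM in day 30 grafts and 496 to 1113 FPKM in day 14 grafts, against 51.2 to 117 FPKM in vein, 19.4 to 39.5 FPKM in day 30 controls and 14.8 to 16.8 FPKM in day 14 controls. Of 8 tested, 7 were higher at each graft time, 3 in vein, and none was lower. Several, CD68 among them, passed the filter through the grafts alone, which fixed their direction, so the count carries no weight. CD68, a lysosomal protein of macrophages, was listed at 0 in all vein and control libraries, and had 10.47 to 112 FPKM in day 30 grafts and 45.7 to 146 FPKM in day 14 grafts.

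The remaining lists of markers were compared in the same way. T, B and plasma cell markers summed to 89.5 to 457 FPKM in day 30 grafts, 47.4 to 84.9 FPKM in day 14 grafts, 2.59 to 27.6 FPKM in vein, 1.47 to 14.6 FPKM in day 30 controls and 0.270 to 2.34 FPKM in day 14 controls, and 6 of 7 tested were higher at day 30, 7 at day 14 and 1 in vein. Most of these 7 also passed the filter through the grafts, so their direction was fixed and the count carries no weight. Fibroblast and adventitial markers summed to 4589 to 5324 FPKM in day 30 grafts, 3270 to 4022 FPKM in day 14 grafts, 4234 to 5127 FPKM in vein, 1932 to 3633 FPKM in day 30 controls and 2003 to 2176 FPKM in day 14 controls. Of 10 tested, 3 were higher and 1 lower at day 30, 2 higher and 4 lower at day 14, and 6 higher and 2 lower in vein. The shares of all genes higher and lower were 26.0% and 11.6% at day 30, 36.5% and 17.0% at day 14, and 25.2% and 12% in vein. The day 30 counts of this list were near those shares. Nerve and Schwann cell markers summed to 9.03 to 25.5 FPKM in day 30 grafts, 5.74 to 32.3 FPKM in day 14 grafts, 37.5 to 49.6 FPKM in vein, 26.1 to 82.8 FPKM in day 30 controls and 66.1 to 78.5 FPKM in day 14 controls. Of 7 tested, 4 were lower at day 30, 6 lower and 1 higher at day 14, and 4 lower in vein. Several of them passed the filter through the controls alone, with the same limit on the count.

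Skeletal muscle markers were high in control arteries and low in grafts and vein, with sums of 24.8 to 58.4 FPKM in day 30 grafts, 7.27 to 79.2 FPKM in day 14 grafts, 28.3 to 40.3 FPKM in vein, 470.2 to 594 FPKM in day 30 controls and 559 to 620.0 FPKM in day 14 controls. The vein sums lay within the range of both graft groups. All 3 tested were lower in both grafts and in vein than in controls. Over all genes tested, 11.6% were lower and 26.0% higher at day 30, 17.0% and 36.5% at day 14, and 12% and 25.2% in vein. TNNC1, the troponin C of slow skeletal and heart muscle, was at 14.4 FPKM or less in every graft and vein library, against 154 ± 62.0 FPKM in day 30 controls and 175 ± 12.2 FPKM in day 14 controls. Its part in the RGS5 differences was not tested. Unlike RGS5, TNNC1 was as low in vein (3.84 ± 1.31 FPKM) as in day 30 grafts (3.78 ± 1.47 FPKM). Adipocyte markers summed to 679 to 815 FPKM in day 30 grafts, 294 to 1427 FPKM in day 14 grafts, 105 to 436 FPKM in vein, 53.1 to 446 FPKM in day 30 controls and 49.3 to 52.7 FPKM in day 14 controls, and of 4 tested 2, 3 and 3 were higher at day 30, at day 14 and in vein. The shares of all genes given above belong to the first fit. Since the reduced fit called fewer genes over all, its counts, given next, are not to be set beside them. Under the reduced fit the numbers higher at day 30, at day 14 and in vein were 6, 6 and 5 for endothelial, 6, 4 and 2 for macrophage, 6, 3 and 0 for T, B and plasma cell, 3, 2 and 4 for fibroblast, and 1, 1 and 0 for adipocyte markers. The numbers lower were 2, 4 and 3 for nerve and 3, 2 and 3 for skeletal muscle markers.

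Regulators of the smooth muscle programme moved in both directions. Of 15 tested, 2 were higher and 6 lower at day 30, 4 higher and 6 lower at day 14, and 2 higher and 6 lower in vein, beside 26.0% and 11.6%, 36.5% and 17.0%, and 25.2% and 12% of all genes. The reduced fit called 1 and 5, 0 and 3, and 2 and 3. YAP1, a co-activator of TEAD factors, averaged 13.2 ± 1.33 FPKM in day 30 grafts and 28.2 ± 5.10 FPKM in day 30 controls (log2 difference -1.03, SE 0.10, limma adjusted p = 5.13e-07). It averaged 7.30 ± 0.195 FPKM in day 14 grafts and 37.5 ± 1.57 FPKM in day 14 controls (log2 difference -2.21, SE 0.10, limma adjusted p = 2.29e-11). TEAD3, one of its DNA-binding partners, was lower by -1.71 (SE 0.16, limma adjusted p = 2.26e-07) at day 30, -1.77 (SE 0.16, limma adjusted p = 6.45e-08) at day 14 and -0.90 (SE 0.14, limma adjusted p = 6.21e-05) in vein. SRF, which drives contractile genes, was lower by -0.66 (SE 0.15, limma adjusted p = 0.00144) at day 30 and -1.22 (SE 0.15, limma adjusted p = 1.52e-06) at day 14, and did not pass in vein (-0.23, SE 0.13, limma adjusted p = 0.161). NR2F2, the vein identity factor COUP-TFII, had 11.9 to 18.4 FPKM in vein, against 0.520 to 2.19 FPKM in day 30 controls and 0.530 to 2.64 FPKM in day 14 controls. Its log2 difference was 2.72 (SE 0.37, limma adjusted p = 1.33e-05). In grafts NR2F2 averaged 5.08 ± 3.44 FPKM at day 30 and 4.57 ± 2.51 FPKM at day 14, and these calls (limma adjusted p = 0.03 and 0.0478) were lost in 9 and 25 of 32 alternatives. HIF1A, the hypoxia factor, was at 112 ± 20.5 FPKM in day 30 grafts, 148 ± 10.9 FPKM in day 14 grafts, 70.4 ± 1.64 FPKM in vein, 281 ± 2.29 FPKM in day 30 controls and 156 ± 5.47 FPKM in day 14 controls. It was lower in grafts at day 30 (log2 difference -1.34, SE 0.10, limma adjusted p = 1.31e-08) and not called at day 14 (-0.07, SE 0.10, limma adjusted p = 0.55).

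The genes whose levels followed RGS5 most closely were then picked by the Pearson correlation of log2(FPKM + 1) over the 20 libraries, among 4732 named genes whose highest group averaged 5 FPKM or more. The median correlation was -0.18, 24 genes were above 0.9 and 25 below -0.9. The libraries share their groups, so these values mostly describe group differences. The 10 nearest genes were HTR1B (0.97), ROR1 (0.96), COL13A1 (0.96), ARSJ (0.95), ZNF385D (0.95), SUSD5 (0.95), FIBIN (0.95), FADS3 (0.95), HSPA4 (0.94) and PLS3 (0.94). Among the most unlike were PLA2R1 (-0.97), VWF (-0.97), MTCH1 (-0.96) and PTGFRN (-0.96). Leaving out any 1 library kept 8 to 10 of the nearest 10, the reduced set of libraries kept 8 and TPM scaling 7. Ranking by Spearman's coefficient kept 2, and leaving out vein kept none, so this set rests on the vein libraries.

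Since these genes were chosen for following RGS5, their levels are a description. SUSD5, a membrane protein, came nearest to RGS5 in the size of its differences. It had 9.51, 5.54, 2.55 and 6.12 FPKM in day 30 grafts, 2.01, 2.22, 1.87 and 2.06 FPKM in day 14 grafts and 0.180 FPKM or less in vein. Control arteries had 83.1 to 108 FPKM at day 30 and 90.3 to 99.1 FPKM at day 14. Unlike RGS5, SUSD5 was higher in every day 30 graft than in any day 14 graft. COL13A1, a transmembrane collagen, averaged 4.02 ± 0.670 FPKM in day 30 grafts, 1.84 ± 0.269 FPKM in day 14 grafts, 0.05 ± 0.0577 FPKM in vein, 25.7 ± 2.37 FPKM in day 30 controls and 22.4 ± 0.792 FPKM in day 14 controls. FIBIN, the fin bud initiation factor homolog, averaged 31.2 ± 5.06 FPKM in day 30 grafts, 55.6 ± 4.19 FPKM in day 14 grafts, 20.2 ± 9.15 FPKM in vein, 418 ± 90.3 FPKM in day 30 controls and 376 ± 9.37 FPKM in day 14 controls. ROR1, a receptor of Wnt5a, averaged 2.52 ± 0.474, 2.72 ± 0.562, 0.565 ± 0.148, 8.83 ± 2.38 and 8.79 ± 0.649 FPKM in the same order of groups. The smallest differences among the 10 were those of PLS3, plastin 3, at 47.8 ± 6.49 FPKM in day 30 grafts, 49.3 ± 8.58 FPKM in day 14 grafts, 33.7 ± 3.05 FPKM in vein, 68.9 ± 6.11 FPKM in day 30 controls and 63.5 ± 1.68 FPKM in day 14 controls.

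Of the most unlike genes, PLA2R1, a phospholipase A2 receptor, averaged 3.08 ± 0.234 FPKM in day 30 grafts, 2.84 ± 0.789 FPKM in day 14 grafts, 7.83 ± 2.55 FPKM in vein, 0.850 ± 0.235 FPKM in day 30 controls and 1.11 ± 0.116 FPKM in day 14 controls. It was highest in vein and lowest in the control arteries.

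**Figure D5:**
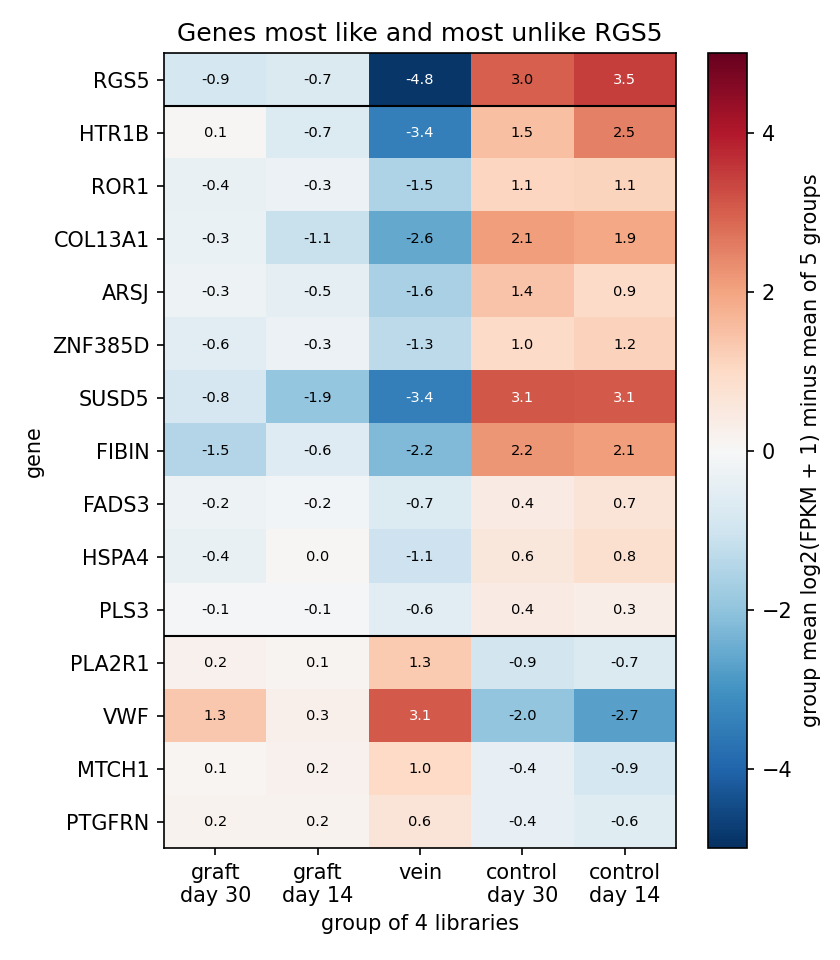
Group means of log2(FPKM + 1) for RGS5, the 10 genes most like it and 4 of the most unlike, each minus the mean of its 5 group means, with 4 libraries in a group. RGS5 spans the widest range of the genes shown, with SUSD5 next, and VWF is the gene with the widest range in the opposite sense.

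In the rabbit reference annotation mOryCun1.1, RGS5 lies on chromosome 7 with RGS4 as its neighbour on one side and NUF2, a kinetochore gene, as the nearest protein-coding gene on the other. The neighbours did not follow RGS5. RGS4 was higher in day 30 grafts and in vein, as given above. NUF2 was at 0 to 0.760 FPKM in day 30 grafts, 0.450 to 1.89 FPKM in day 14 grafts, 0.600 FPKM or less in vein, 0.360 FPKM or less in day 30 controls and 0.0900 FPKM or less in day 14 controls, too low to be tested.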

How the data were processed

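Per the labels' protocols, total RNA of 20 rabbit vessel libraries was sequenced from both fragment ends on an Illumina instrument. The authors deposited one table of FPKM per transcript. Per the submitters' processing notes, fastp, HISAT2, StringTie, RSEM and DESeq2 were used, with versions and genome build not given in the sources used here. Without read counts, depth and counting error are unknown.

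FPKM were summed per Gene ID. Of 23669 genes, 8657 reached the minimum of 1 FPKM in 4 or more libraries and were tested. Groups came from the labels, and vein columns were matched by library name. A group-means model was fitted to log2(FPKM + 1) of all 20 libraries with limma 3.58.1 (R 4.3.3) and a variance trend. Tests were two-sided, with Benjamini-Hochberg adjustment over all genes tested and a threshold of 0.05. Errors of log2 differences are limma's SE. The added 1 FPKM makes these differences understate those of low genes. The procedure was tested on simulated data. RGS5 itself was given no p-value. Each library was also compared with the best weighted mean of the other 3 of its group (weights in steps of 0.05), using genes that averaged 10 FPKM or more. The closest library of each group other than control day 14 was marked as mixture-like.

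RGS5, the 17 gene lists and the tests were chosen with earlier results of these data known. The rule for named genes takes the 10 genes most like and 5 most unlike RGS5, all RGS and alpha subunit genes tested, up to 4 members of each other list with the smallest adjusted p at day 14 and up to 2 more at day 30 and in vein, and some fixed genes. The text names part of them, and 1 gene and 1 gene list are not reported here. The 32 alternatives changed the pseudocount (0.1), the filter (5 FPKM, or no filter), the scaling (TPM, quantile or median-of-ratios) or the model (compared groups alone, weights per library, replicate number as block). Others left out each library in turn, counted control day 14 as 1 sample, removed the mixture-like libraries, or did both of these. Figures were drawn with Python 3.11.15 and matplotlib 3.10.9.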

Additional observations from a re-analysis of the deposited data

Results flagged for a closer look

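In 3 of 135 groups of 4 libraries, 1 value stood far from the others, where chance alone marks about 1 in 20 groups. GNAI1 in graft day 30 replicate 2 was at 6.80 FPKM, below 3 values between 9.42 and 9.58 FPKM. PDGFRB in control day 14 replicate 3 was at 22.97 FPKM, above 3 values between 20.74 and 20.98 FPKM. TNNC1 in graft day 14 replicate 2 was at 14.4 FPKM, against 2.44 FPKM in the lowest library. No RGS5 value stood out in this way.

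For 19 of 69 genes named in the text the graft effect (graft minus control) differed between day 30 and day 14 by limma, as it did for 12.9% of all genes tested. Many of the 69 were named for a small adjusted p at day 14 or for their likeness to RGS5 in these libraries, so the 2 shares cannot be read against each other. For RGS5, which has no test, the difference of effects was 0.35 (SE 0.61). Among RGS and G protein genes it was -2.28 for RGS2 (limma adjusted p = 0.00121), -2.06 for RGS10 (limma adjusted p = 0.00657), 1.69 for GNAI1 (limma adjusted p = 0.00199) and 1.46 for GNAQ (limma adjusted p = 0.000171). Among receptors and effectors it was 2.99 for ADCY5 (limma adjusted p = 1.585e-05), 0.86 for MYLK (limma adjusted p = 0.0195) and 1.38 for PLCB4 (limma adjusted p = 0.00377). Among contractile genes it was 1.34 for ACTA2 (limma adjusted p = 0.000595), 1.53 for MYH11 (limma adjusted p = 0.009615), 1.56 for TAGLN (limma adjusted p = 0.00705), 2.14 for PLN (limma adjusted p = 7.6e-07), 1.74 for CRYAB (limma adjusted p = 0.00247) and 2.95 for CASQ2 (limma adjusted p = 0.000114). MYH11 was at only 0.19 to 2.6 FPKM in day 14 grafts, near the added 1 FPKM, so the size of its difference is uncertain. The difference of effects was -1.26 for HIF1A (limma adjusted p = 2.39e-05) and 1.18 for YAP1 (limma adjusted p = 9.87e-05). The genes picked by likeness or unlikeness to RGS5 over the same libraries have no test, and for them this difference was 1.72 for HTR1B, 1.04 for SUSD5, 0.63 for COL13A1 and -0.61 for MTCH1. In the reduced fit, with control day 14 as 1 sample and without the 4 mixture-like libraries, PLN was the only one of the 19 still called.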

How the results depend on the processing

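The RGS5 differences of grafts and of vein from controls, and of grafts from vein, kept their sign in all 32 alternatives. Many of these could not move a given difference by their design. They were the other filters, the compared groups alone, the replicate block and the loss of a library outside the comparison. Graft against control ranged from -4.13 to -3.69 at day 30 and from -4.49 to -3.67 at day 14, vein against controls from -8.38 to -7.49, and graft against vein from 3.41 to 4.30 at day 30 and from 3.54 to 4.43 at day 14. Median-of-ratios scaling moved the median of all genes by -0.15 at day 30, -0.22 at day 14 and -0.13 in vein, and relative to that median RGS5 stood at -4.02, -4.45 and -8.20 as first fitted and at -4.07, -4.53 and -8.26 after it. By more than the spread, quantile scaling moved graft against control at day 30 to -4.13, library weights moved it at day 14 to -3.67, and control day 30 against day 14 moved to -0.18 with quantile and -0.25 with TPM scaling. Graft day 30 against day 14 turned positive with TPM (0.0791) and quantile scaling (0.0076) and without the mixture-like libraries (0.0408 in both fits). The difference of the graft effects turned to -0.15 with library weights. The cause of these shifts was not tested.

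Counts of genes called, 3253 (day 30), 4634 (day 14), 3214 (vein), 1121 (difference of effects), 1412 (graft day 30 against day 14), 929 (control day 30 against day 14), 2894 (graft day 30 against vein) and 3750 (graft day 14 against vein), moved by over 1.5 times as follows, with fewer samples in most. With control day 14 as 1 sample they were 2499 at day 14, 2036 in vein, 93 for the difference and 29 between controls. Without the mixture-like libraries they were 381 for the difference, 424 between grafts, 433 between controls and 1918 for graft day 30 against vein. With both changes they were 1758 at day 30, 1641 at day 14, 1110 in vein, 7 for the difference, 88 between grafts, 8 between controls, 1285 for graft day 30 and 2077 for graft day 14 against vein. With library weights they were 5082 at day 30, 4257 for the difference, 5299 between grafts, 2963 between controls, 4655 for graft day 30 and 5853 for graft day 14 against vein. TPM scaling gave 557 for the difference and 828 between grafts, and fitting the compared groups alone gave 321 between grafts.

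Leaving out each library in turn gave RGS5 ranges of -3.94 to -3.69 (day 30), -4.41 to -3.91 (day 14), -8.38 to -7.49 (vein), 0.07 to 0.57 (difference of effects), -0.40 to 0.0918 (between grafts), -0.58 to -0.38 (between controls), 3.41 to 4.30 (graft day 30 against vein) and 3.54 to 4.43 (graft day 14 against vein). The counts ranged over 2864 to 3476, 4307 to 4701, 2756 to 3420, 865 to 1405, 918 to 1658, 627 to 1103, 2479 to 3124 and 3282 to 3861 in the same order. Of 198 calls of single genes followed, 122 held in all alternatives and none changed sign. The genes followed include some picked by likeness to RGS5 over the same libraries, HTR1B and SUSD5 among them. They can also include genes whose direction the filter fixed. For such genes the count is a description and carries no weight. Of 147 comparisons of single genes that were not called, 88 were called under at least 1 alternative, so a gene that did not pass is not shown to be equal between groups.

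The labels give replicate numbers, but same-numbered libraries of graft and control did not deviate together, with correlations of -0.18 to 0.13, and 2 of 8 correlated best with their own number. The replicate number as a block could not move the RGS5 difference, because every group holds the same replicate numbers. The block joined same-numbered libraries of all groups, both days and vein included. A pairing of graft with opposite artery within a day was not fitted. With the block the RGS5 difference of graft from control was -4.19 (SE 0.42) at day 14. With this block the day 14 count was 4573, and 1 of the 198 calls was lost, that of NR2F2 at day 14. With 4 libraries a group and no read counts, the precision of low genes cannot be judged.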
